A study of Mus musculus with 6 samples.

Results

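The 43 genes described here encode molecular chaperones of the cytosol, their co-chaperones, the chaperonin of mitochondria and the transcription factors of the heat shock response. They were picked by gene symbol from the 47561 rows of the count tables, and all 43 symbols were found. They were grouped as 5 HSP70 genes, 5 nucleotide exchange factors, 8 genes of HSP90 and its co-chaperones and 13 J-proteins. The others were grouped as 7 subunits of the cytosolic chaperonin, 2 genes of the mitochondrial chaperonin, and 3 genes of small heat shock proteins and heat shock factors. The group was proposed after the same knockout and control libraries had been compared, so the differences between the groups below are a description of the genes chosen and support no statement about them.

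Long-term hematopoietic stem cells (LT-HSCs), which sustain themselves and all blood lineages for the life of the animal, had been sorted from mouse bone marrow for RNA sequencing. There were 3 libraries labelled Piezo1 KO and 3 labelled control, with the genotype given as wild type for the control. Piezo1 encodes a cation channel opened by membrane tension. Strain, age, sex, the deleted part of the gene and the driver of the deletion are not given in the labels used here, and neither is the number of mice behind a library. The genotype entries of Piezo1 KO replicates 2 and 3 name another Piezo number than their titles, and the titles were followed. Because separate mice are not stated, a p-value here reflects no more than the spread among these libraries, which may be technical.

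Library totals lay between 59435258 and 64653956 counts. Levels are given as CPM, counts scaled to the adjusted library total, and, for every gene, in the order of replicates 1, 2 and 3. Piezo1 held 4.28, 7.99 and 9.46 CPM in the Piezo1 KO libraries and 17.0, 7.02 and 24.3 CPM in the control libraries, so control replicate 2 lay below Piezo1 KO replicates 2 and 3 (log2 fold change -1.15, SE 0.56, edgeR adjusted p = 0.508). All 10 LT-HSC markers examined had counts in every library, though their levels differed: the log2 fold change was -1.41 (SE 0.39) in Ly6a, -1.82 (SE 0.67) in Procr and 0.79 (SE 0.29) in Kit, and the groups did not overlap in Ly6a and Kit. Of 14 tested immediate early genes, 12 were positive with a median of 1.46, and the 16 listed summed to 236, 259 and 508 CPM in Piezo1 KO and 259, 179 and 112 CPM in control libraries. Of 10 erythroid markers, 8 had a positive log2 fold change, with summed levels of 8260 to 26362 CPM in Piezo1 KO and 2594 to 7626 CPM in control libraries, and the 4 globin genes lay higher in all 3 Piezo1 KO libraries. The other 6 summed to 1934, 845 and 1179 CPM in Piezo1 KO and to 3262, 1353 and 3795 CPM in control libraries, with log2 fold changes of -1.22 (SE 0.45) for Car1 and -0.67 (SE 0.29) for Klf1. Alas2 and Slc4a1 of that list were at 0 in control replicate 1. The 7 megakaryocyte markers summed to 1588 to 2412 CPM in Piezo1 KO and 729 to 986 CPM in control libraries, and Gp6 was at 0 in all 6 libraries. The 9 granulocyte markers summed to 120 to 1157 CPM in Piezo1 KO and 172 to 11732 CPM in control libraries, where control replicate 3 held the highest value. Of these 9, 3, 1 and 1 were at 0 in Piezo1 KO libraries and 2, 2 and 0 in control libraries. The part of these other genes and cell types in the chaperone values was not tested, and in bulk RNA fewer cells of a type and less RNA per cell cannot be told apart.

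Chaperones bind unfolded or partly folded proteins and keep them from aggregating. HSP70 proteins do so in a cycle driven by ATP: J-proteins deliver the client and start ATP hydrolysis, and nucleotide exchange factors release ADP and the client. Clients such as kinases and steroid receptors pass on to HSP90, which works with co-chaperones that recruit clients, adjust its ATPase or link it to HSP70. Actin and tubulin fold inside the ring-shaped cytosolic chaperonin, CCT or TRiC, and HSP60 with its lid HSP10 serves the mitochondrial matrix. When unfolded proteins build up, heat shock factor 1 binds heat shock elements in the promoters of the inducible chaperones. Hematopoietic stem cells make protein slowly compared with other blood cells and are known to be sensitive to disturbed protein folding.

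The heat shock element is a run of inverted GAA units, and 5 promoter windows are shown because they span the range seen among these genes, from a full element to none. The sequences are RefSeq's for GRCm38.p6, from 250 bases before to 50 bases after an annotated transcript start, on the strand of the gene, 5′ to 3′. Capitals mark a full element of 3 units (GAANNTTCNNGAA or TTCNNGAANNTTC, searched on both strands) in Hspe1 and Hsph1, and a single inverted pair (GAANNTTC or TTCNNGAA) in Hspa1b and Dnaja1. The Hspe1 window is chr1:55087898-55088197 on the plus strand, Hsph1 is chr5:149636266-149636565 on the minus strand, Hspa1b is chr17:34959189-34959488 on the minus strand, Dnaja1 is chr4:40722218-40722517 on the plus strand, and Cct8 is chr16:87495820-87496119 on the minus strand.
Hspe1: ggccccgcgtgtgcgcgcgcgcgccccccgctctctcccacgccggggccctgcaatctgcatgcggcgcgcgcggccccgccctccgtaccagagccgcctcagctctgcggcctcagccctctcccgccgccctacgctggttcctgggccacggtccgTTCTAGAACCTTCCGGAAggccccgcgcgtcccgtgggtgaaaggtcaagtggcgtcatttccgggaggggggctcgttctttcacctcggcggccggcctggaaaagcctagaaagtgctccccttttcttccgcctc
Hsph1: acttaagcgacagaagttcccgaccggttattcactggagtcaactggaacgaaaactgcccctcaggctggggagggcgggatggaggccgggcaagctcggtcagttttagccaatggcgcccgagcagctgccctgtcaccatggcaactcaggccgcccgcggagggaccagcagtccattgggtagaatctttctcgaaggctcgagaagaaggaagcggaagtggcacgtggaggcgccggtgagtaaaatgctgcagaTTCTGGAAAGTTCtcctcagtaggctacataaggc
Hspa1b: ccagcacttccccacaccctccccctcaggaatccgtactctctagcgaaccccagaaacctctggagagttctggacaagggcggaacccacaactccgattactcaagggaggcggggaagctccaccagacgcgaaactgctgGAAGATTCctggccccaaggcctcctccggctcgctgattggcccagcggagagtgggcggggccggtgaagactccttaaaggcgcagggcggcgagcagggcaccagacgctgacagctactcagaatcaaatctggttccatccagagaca
Dnaja1: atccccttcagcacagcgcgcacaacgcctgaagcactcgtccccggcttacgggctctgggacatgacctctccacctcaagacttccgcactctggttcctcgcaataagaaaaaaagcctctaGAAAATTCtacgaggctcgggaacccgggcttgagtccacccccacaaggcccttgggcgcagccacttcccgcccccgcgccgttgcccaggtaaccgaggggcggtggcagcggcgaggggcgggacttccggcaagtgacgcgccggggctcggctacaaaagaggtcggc
Cct8: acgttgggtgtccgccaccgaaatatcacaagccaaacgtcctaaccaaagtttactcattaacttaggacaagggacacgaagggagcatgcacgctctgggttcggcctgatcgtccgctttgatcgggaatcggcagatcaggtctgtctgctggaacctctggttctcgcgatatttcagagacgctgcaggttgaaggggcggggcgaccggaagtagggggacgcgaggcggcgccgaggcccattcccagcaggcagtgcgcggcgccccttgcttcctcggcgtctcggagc

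In the Hspe1 window the elements TTCTAGAACCTTC, at -89 to -77 from the start, and GAACCTTCCGGAA, at -84 to -72, overlap and form 1 run. Hspe1 and Hspd1 are neighbours read in opposite directions, and 1 Hspd1 window shares 285 bases with that of Hspe1, so both genes hold the same run. Hsph1 has TTCTGGAAAGTTC at 16 to 28 after the start. Dnaja1 has GAAAATTC at -124 to -117 and Hspa1b has GAAGATTC at -104 to -97, and neither motif was found in the Cct8 window. The table held windows for 35 of the 43 genes, and Hspa8, Hspa9, Hsp90aa1, Hsp90ab1, Hsf1, Dnajc2, Dnajc5 and Cct4 had none. Of the 35 genes, 4 (11.4%) held the full element in at least 1 window, namely Hspd1, Hspe1, Hsph1 and Dnajb6, against 179 of all 27025 genes in the table (0.662%). The shorter inverted pair, which every full element also contains, was in 16 of the 35 genes (45.7%) and in 17% of all genes. A match is a string of letters and not a measured binding site. Only exact units at the spacing given above were searched, so a window without a match may still hold a variant of the element.

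In Piezo1 KO LT-HSCs the abundant HSP70 gene Hspa8, its J-proteins Dnaja1, Dnaja2 and Dnajb1, and all 7 chaperonin subunits were at lower levels than in control LT-HSCs, while both cytosolic HSP90 genes held nearly the same level in both groups. Of the 43 genes, 40 passed the filter on low counts. Hspa1a, Hspa1b and Hspb1 did not. Log2 fold changes of Piezo1 KO over control were negative for 31 and positive for 9 of the 40, against negative for 47.8% of the 16022 genes tested. The median was -0.31 for the 40 genes and 0.03 for all tested genes.

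In edgeR's quasi-likelihood test with Benjamini-Hochberg adjustment over all genes, 0 of the 40 passed in either direction, as did 0% of all tested genes. Their adjusted p-values lay between 0.255 and 0.995. At an unadjusted p under 0.05, 15 of the 40 were lower and 0 higher in Piezo1 KO, beside 5.59% lower and 5.44% higher of all tested genes. That 15 was 8 without control replicate 1, 7 without Piezo1 KO replicate 2, 7 without Piezo1 KO replicate 3 and 19 without Piezo1 KO replicate 1. Over all tested genes, those fits in the same order had 573 of 17121, 656 of 16832, 584 of 16886 and 858 of 16921 lower. The main test had 896 of 16022 lower. DESeq2 called 7 of the 43 genes lower and 0 higher at an adjusted p under 0.05, beside 2.46% lower and 2.36% higher of the 16081 genes with a DESeq2 adjusted p. Those 7 were Hspa8, Dnaja1, Dnaja2, Dnajb1, Cct8, Cct4 and Stub1. The 3 Piezo1 KO libraries all lay below the 3 control libraries in 16 of the 40 genes and all above in 1, beside 8.76% and 10.7% of all tested genes.

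Lower values were more frequent among abundant genes, in these classes and over all tested genes. The 26 chaperone genes averaging at least 100 CPM over the 6 libraries had a median log2 fold change of -0.46. Of them, 15 lay lower in Piezo1 KO without overlap and 14 were lower at an unadjusted p under 0.05. Of the 1919 tested genes of that level, 21.7% lay lower in Piezo1 KO without overlap and 6.57% higher, 18.1% were lower at an unadjusted p under 0.05, and their median was -0.16. The 14 chaperone genes under 100 CPM had a median of -0.02, and 7 of them were positive. Across tested genes the log2 fold change ran with transcript length (Spearman's rho 0.24, over the 89.5% of genes with a length, which are not independent replicates). With each library's trends along transcript length and GC content taken out, a step chosen after seeing the data, the median of the 40 genes was -0.19, with 25 negative. The median of all 14339 genes tested in that fit was 0.02. At an unadjusted p under 0.05, 12 of the chaperone genes and 767 of all genes in that fit were lower.

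**Figure D1:**
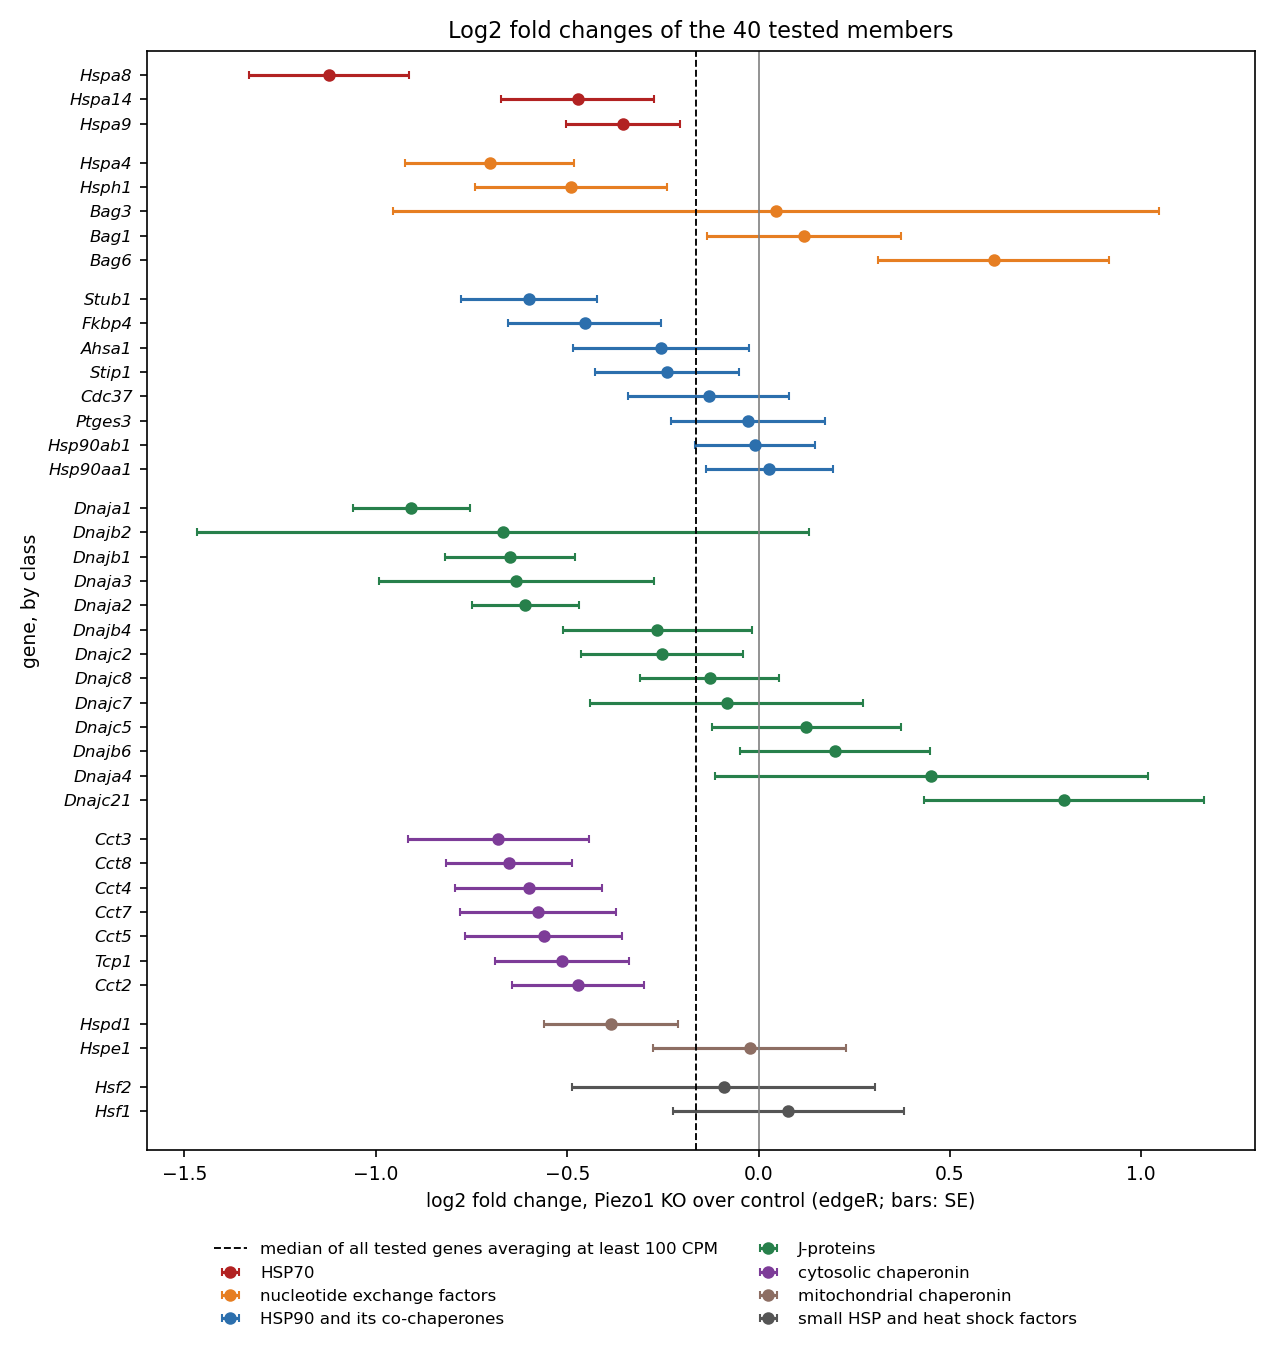
Log2 fold changes of Piezo1 KO over control from edgeR for the 40 tested genes, arranged by class, with bars of 1 SE. The dashed line is the median of all tested genes averaging at least 100 CPM (-0.16), and all 3 HSP70 and all 7 chaperonin genes lie to its left, while Hsp90aa1 and Hsp90ab1 lie near 0.

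Hspa8 encodes HSC70, the constitutive cytosolic HSP70, which folds new proteins, strips clathrin from vesicles and carries clients to lysosomes. Its level was 1554, 1328 and 1428 CPM in Piezo1 KO libraries, against 4065, 2920 and 2404 CPM in control libraries. All 3 Piezo1 KO libraries lay close together and below every control library, and the control libraries spread more widely. The mean was 1437 ± 113 CPM over the Piezo1 KO and 3129 ± 850 CPM over the control libraries (SD, n = 3 each). The log2 fold change was -1.12 (SE 0.21), with an edgeR adjusted p = 0.255 and a DESeq2 adjusted p = 6.45e-05. Without control replicate 1, the highest library, it was -0.89. Per kilobase of transcript, Hspa8 ranked 4 among the 43 genes in Piezo1 KO (600.1 CPM per kb) and 1 in control (1307 CPM per kb).

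The median of the 3 tested HSP70 genes was -0.47. Hspa9, mortalin, drives import into the mitochondrial matrix and folding there, and it held 257, 211 and 230 CPM in Piezo1 KO against 293, 313 and 288 CPM in control libraries. Hspa14, an HSP70 that associates with ribosomes, held 145, 114 and 92.2 CPM in Piezo1 KO against 166, 172 and 149 CPM in control libraries. Both genes kept the groups apart, though the highest Hspa14 value in Piezo1 KO came close to the lowest in control. Their log2 fold changes were -0.36 (SE 0.15) for Hspa9 and -0.47 (SE 0.20) for Hspa14, the last of which was -0.17 with the length and GC trends removed.

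The stress-inducible genes Hspa1a and Hspa1b, which encode HSP70 proper, were almost without counts. Hspa1a had 0 counts in each Piezo1 KO library and 0, 5 and 0 counts in control libraries. Hspa1b had 0, 2 and 0 counts in Piezo1 KO libraries and 0, 5 and 0 in control libraries. A count of 0 allows up to 3 counts, between 0.0440 and 0.0539 CPM over the 6 libraries, so neither gene was detectable above that floor in most libraries of either group. Of the 50-base windows of the Hspa1a transcript, 58.8% also occur in Hspa1b, and the treatment of reads that map to both is not stated in the sources used here.

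Among the J-proteins, the class that brings clients to HSP70, the Piezo1 KO libraries lay below control without overlap in 3 genes, Dnaja1, Dnaja2 and Dnajb1, all partners of Hspa8 in the cytosol. Dnaja1 held 234, 228 and 207 CPM in Piezo1 KO against 468, 392 and 394 CPM in control libraries. The groups lay well apart, with little spread inside each, and the highest Piezo1 KO value was 40.4% under the lowest control value. Its log2 fold change was -0.91 (SE 0.15), with an edgeR adjusted p = 0.255 and a DESeq2 adjusted p = 1.16e-07.

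Dnaja2, a close relative of Dnaja1, held 176, 195 and 177 CPM in Piezo1 KO against 278, 288 and 270 CPM in control libraries. Dnajb1, the heat-inducible HSP40, held 76.9, 68.7 and 66.9 CPM in Piezo1 KO against 120 CPM, 116 CPM and 97.1 CPM in control libraries. Neither gene showed overlap between the groups. The log2 fold changes were -0.61 (SE 0.14) for Dnaja2 and -0.65 (SE 0.17) for Dnajb1, and in both edgeR's adjusted p missed the threshold (0.255 and 0.277) where DESeq2's adjusted p passed it (3.22e-05 and 0.00736).

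The other J-proteins were mixed. Of the 13 genes, 9 had negative log2 fold changes, with a median of -0.25 that was -0.13 without Piezo1 KO replicate 2 and -0.10 with the length and GC trends removed. Dnajc21, a ribosome biogenesis factor of the 60S subunit, was the 1 gene of the 43 in which all Piezo1 KO libraries lay above control, with 19.9, 23.5 and 20.0 CPM in Piezo1 KO against 8.24, 17.4 and 10.8 CPM in control libraries (log2 fold change 0.80, SE 0.37, edgeR adjusted p = 0.488). Dnaja3, a mitochondrial J-protein that works with mortalin, averaged 41.6 ± 19.4 CPM over Piezo1 KO and 64.5 ± 13.9 CPM over control libraries (SD, n = 3 each), with overlap. Dnajb4, Dnajc2 (the ribosome-associated zuotin), Dnajc7 and Dnajc8 had log2 fold changes between -0.26 and -0.08. Dnajc5, the cysteine string protein of secretory vesicles, and Dnajb6, which suppresses aggregation of polyglutamine proteins, stood at 0.13 and 0.20. Dnajb2 (-0.67, SE 0.80) and Dnaja4 (0.45, SE 0.57) were low and variable, averaging 6.44 and 10.4 CPM in Piezo1 KO and 10.2 and 7.57 CPM in control. Each of these 9 genes overlapped between the groups.

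The nucleotide exchange factors were split. Hspa4, an HSP110 protein that speeds ADP release from HSC70 and helps it dissolve aggregates, held 109 CPM, 64.7 CPM and 88.1 CPM in Piezo1 KO against 148, 127 and 151 CPM in control libraries. Its groups did not overlap, and its log2 fold change was -0.70 (SE 0.22). Hsph1, the heat-inducible HSP110, held 87.1, 67.4 and 58.9 CPM in Piezo1 KO against 73.1 CPM, 106 CPM and 121 CPM in control libraries, with control replicate 1 inside the Piezo1 KO range (log2 fold change -0.49, SE 0.25).

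BAG proteins such as those of Bag1 and Bag3 release ADP from HSP70 through their BAG domain and link it to other machinery. Bag6, which guards membrane proteins and misfolded clients in the cytosol, held 23.4, 34.0 and 38.2 CPM in Piezo1 KO against 16.8, 20.0 and 25.7 CPM in control libraries. Control replicate 3 lay above Piezo1 KO replicate 1, so the groups overlapped (log2 fold change 0.61, SE 0.30, and 0.14 with the length and GC trends removed). Bag1, which ties HSP70 to the proteasome, and Bag3, which ties it to autophagy, stood at 0.12 (SE 0.25) and 0.05 on the log2 scale, and Bag3 ranged between 3.82 and 6.69 CPM in Piezo1 KO and between 0.429 and 10.2 CPM in control libraries. The median of the 5 genes grouped as exchange factors was 0.05. It was -0.50 without control replicate 1, -0.20 without Piezo1 KO replicate 3 and -0.18 with the filter at 5 CPM, so its sign was not stable. Bag6 held the highest log2 fold change of the class, and whether it acts as an exchange factor was not examined here.

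In the HSP90 class, 7 of the 8 genes had negative log2 fold changes with a median of -0.18, and 1 lay lower in Piezo1 KO without overlap. Hsp90aa1, the inducible form, held 2489, 2248 and 2018 CPM in Piezo1 KO against 2176, 1859 and 2589 CPM in control libraries. Hsp90ab1, the constitutive form, held 1653, 1576 and 1699 CPM in Piezo1 KO against 1552, 1964 and 1443 CPM in control libraries. In both genes the groups overlapped throughout. The log2 fold changes were 0.03 (SE 0.17) for Hsp90aa1 and -0.01 (SE 0.16) for Hsp90ab1, and the sign of both turned in some of the alternatives.

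Of the HSP90 co-chaperones, Stub1 stood lowest. It encodes CHIP, the ubiquitin ligase that marks clients of HSP70 and HSP90 for degradation, and held 160, 120 and 138 CPM in Piezo1 KO against 235, 213 and 186 CPM in control libraries. No library crossed into the other group (log2 fold change -0.60, SE 0.18, edgeR adjusted p = 0.315, DESeq2 adjusted p = 0.0305). Fkbp4, the immunophilin FKBP52 of steroid receptor complexes, held 211, 151 and 184 CPM in Piezo1 KO against 256, 287 and 205 CPM in control libraries, where Piezo1 KO replicate 1 lay just above control replicate 3 (log2 fold change -0.45, SE 0.20). Stip1, the HOP protein that joins HSP70 to HSP90, held 209, 142 and 182 CPM in Piezo1 KO against 215, 225 and 190 CPM in control libraries, also with overlap (log2 fold change -0.24, SE 0.19). Ahsa1, the ATPase activator, Cdc37, which recruits kinases, and Ptges3, the p23 protein that stabilises the closed form, had log2 fold changes of -0.26, -0.13 and -0.03, all with overlapping groups. The tables hold 1 pseudogene row named after Ptges3 and 1 named after Dnajb6, which may share reads with these genes.

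**Figure D2:**
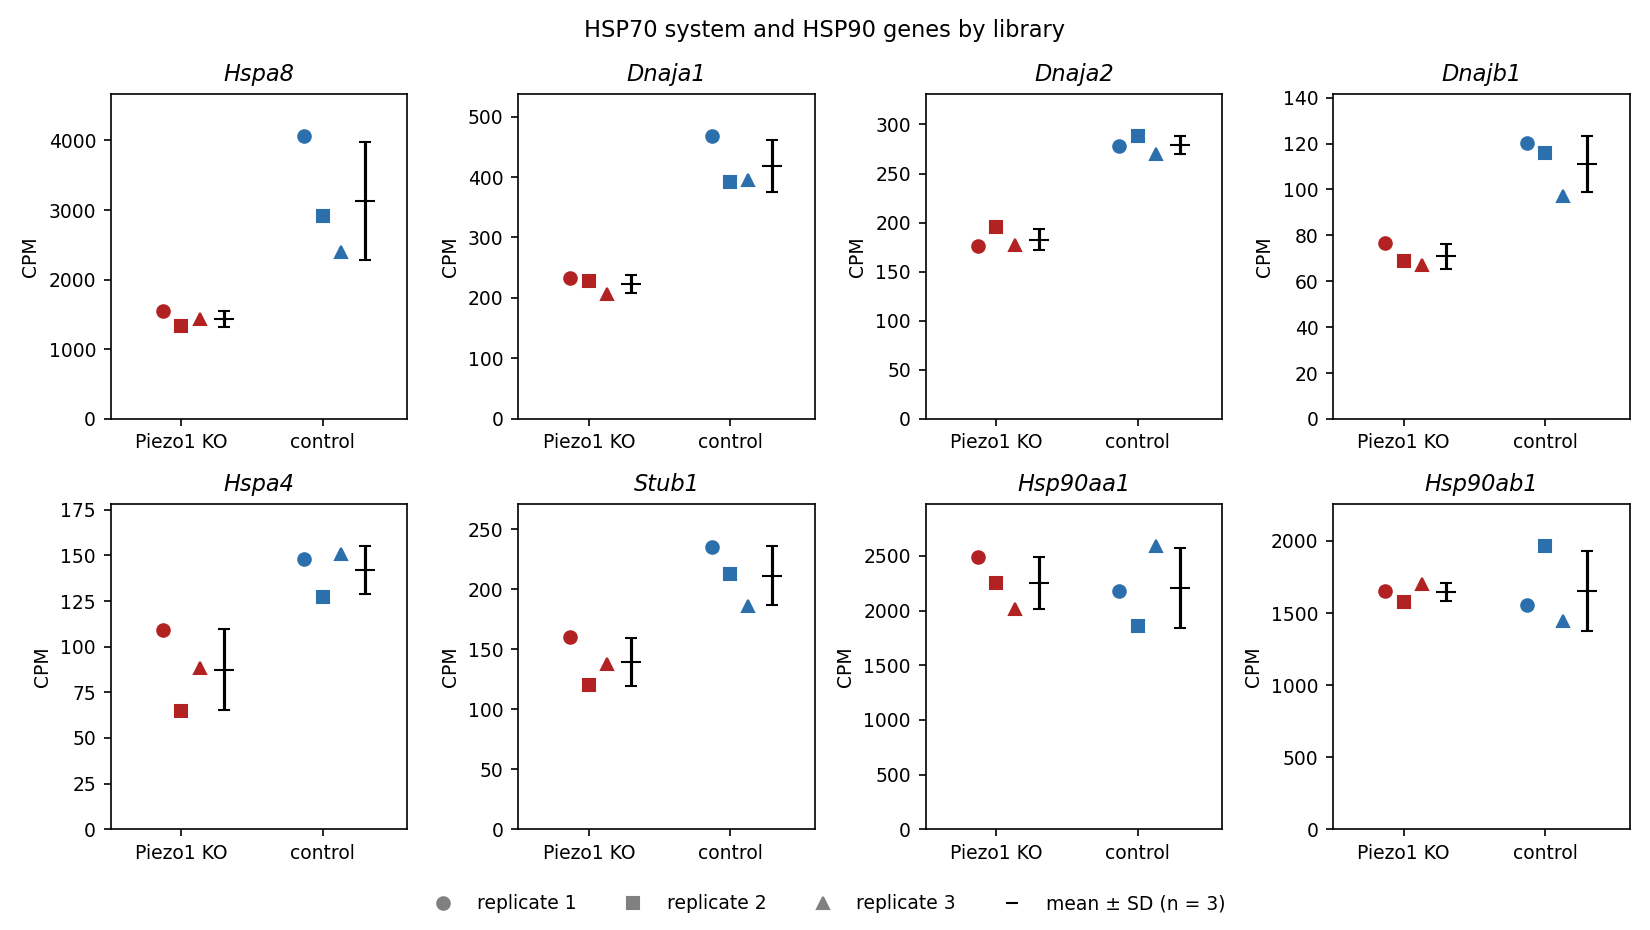
Levels in CPM of 6 genes that act with HSP70 and of both HSP90 genes in each library, with replicates 1 to 3 as different symbols and the mean with 1 SD beside them (n = 3 each). In Hspa8, Dnaja1, Dnaja2, Dnajb1, Hspa4 and Stub1 all Piezo1 KO libraries lie below all control libraries, and in Hsp90aa1 and Hsp90ab1 the groups overlap.

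Setting these genes against each other inside a library removes the library total from the comparison. The level of Hspa8 divided by the sum of Hsp90aa1 and Hsp90ab1 was 0.375, 0.347 and 0.384 in Piezo1 KO libraries, against 1.09, 0.764 and 0.596 in control libraries. The 3 Piezo1 KO ratios were nearly equal and all lay below control. The sum of the HSP90 genes itself was 4142, 3823 and 3717 CPM in Piezo1 KO and 3728, 3823 and 4031 CPM in control libraries. The ratio of Hsp90aa1 to Hsp90ab1 was 1.51, 1.43 and 1.19 in Piezo1 KO and 1.40, 0.947 and 1.79 in control libraries, with overlap.

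Hspa8 supplied 11.4%, 11.3% and 12.0% of the summed CPM of the 43 genes in Piezo1 KO libraries, against 21.8%, 18.6% and 15.7% in control libraries. The 43 genes together took 1.35%, 1.19% and 1.24% of all counts in Piezo1 KO libraries and 1.81%, 1.66% and 1.41% in control libraries, where Piezo1 KO replicate 1 came close to control replicate 3. Dnaja1 divided by Hspa8 was 0.150, 0.172 and 0.145 in Piezo1 KO and 0.115, 0.134 and 0.164 in control libraries, so the co-chaperone and its HSP70 held overlapping proportions in the groups. These ratios are built from the values above and are no separate evidence.

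**Figure D3:**
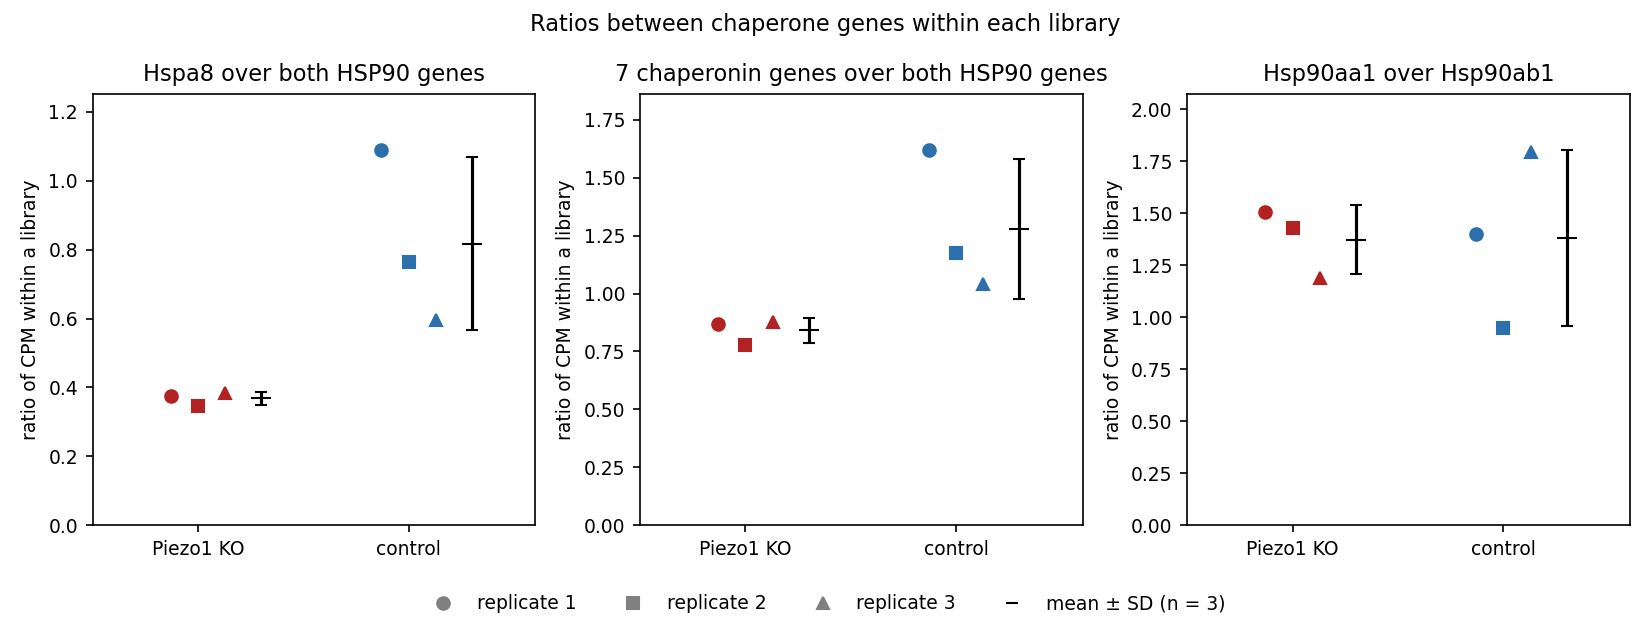
Ratios of CPM inside each library for Hspa8 over both HSP90 genes, for the 7 chaperonin genes over both HSP90 genes, and for Hsp90aa1 over Hsp90ab1, with the mean and 1 SD (n = 3 each). All Piezo1 KO libraries lie below all control libraries in the first and second panels (0.347 to 0.384 against 0.596 to 1.09, and 0.779 to 0.877 against 1.04 to 1.62), and the groups overlap in the last.

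The cytosolic chaperonin genes differed by similar amounts. Cct8, the theta subunit, held 544, 511 and 508 CPM in Piezo1 KO against 978, 739 and 740 CPM in control libraries. Cct4, the delta subunit, held 466, 403 and 426 CPM in Piezo1 KO against 819, 602 and 542 CPM in control libraries. Tcp1, the alpha subunit, held 476, 405 and 420 CPM in Piezo1 KO against 724, 516 and 618 CPM in control libraries. In all 3 genes the Piezo1 KO libraries lay below every control library, and control replicate 1 stood highest. Piezo1 KO over control gave -0.65 (SE 0.16) for Cct8, -0.60 (SE 0.19) for Cct4 and -0.51 (SE 0.17) for Tcp1 on the log2 scale, with DESeq2 adjusted p-values of 0.00412, 0.0458 and 0.0552.

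Cct2, Cct3, Cct5 and Cct7 gave log2 fold changes between -0.68 and -0.47, also without overlap. The class median was -0.58, and the ratio of the Piezo1 KO mean to the control mean lay between 0.624 and 0.721 in the 7 subunits. All 7 had an unadjusted p under 0.05, and edgeR's adjusted p was 0.273 or higher. Each of the 7 averaged at least 100 CPM. Of all tested genes of that level, 18.1% were lower at that unadjusted p and 21.7% lay lower without overlap. Over tested genes of every level, these shares were 5.59% and 8.76%. The distance between the groups varied: the highest Piezo1 KO value was 26.4% under the lowest control value in Cct8 and 0.828% under it in Cct7.

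The end positions were largely held by the same libraries, so the 7 subunits are not separate results. Control replicate 1 was the highest library in 7 of 7 subunits, and Piezo1 KO replicate 2 was the lowest in 6 of 7, with Cct8 lowest in Piezo1 KO replicate 3. The lowest control library was control replicate 2 in Tcp1, Cct2 and Cct8 and control replicate 3 in Cct3, Cct4, Cct5 and Cct7. The class median was -0.41 without control replicate 1 and -0.38 with the length and GC trends removed. Cct6a, the zeta subunit, which is outside the 43 genes, held 521, 423 and 479 CPM in Piezo1 KO against 784, 575 and 624 CPM in control libraries (log2 fold change -0.48, SE 0.18), and control replicate 1 and Piezo1 KO replicate 2 were its highest and lowest libraries. Per kilobase of transcript, the most and the least abundant of the 8 subunits differed by 1.92 times in Piezo1 KO and 1.94 times in control.

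The summed level of the 7 subunits divided by both HSP90 genes was 0.867, 0.779 and 0.877 in Piezo1 KO libraries against 1.62, 1.18 and 1.04 in control libraries, again without overlap. Divided by Hspa8, the same sum was 2.31, 2.24 and 2.28 in Piezo1 KO against 1.49, 1.54 and 1.74 in control libraries. The chaperonin was therefore lower relative to HSP90 and higher relative to Hspa8 in every Piezo1 KO library.

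**Figure D4:**
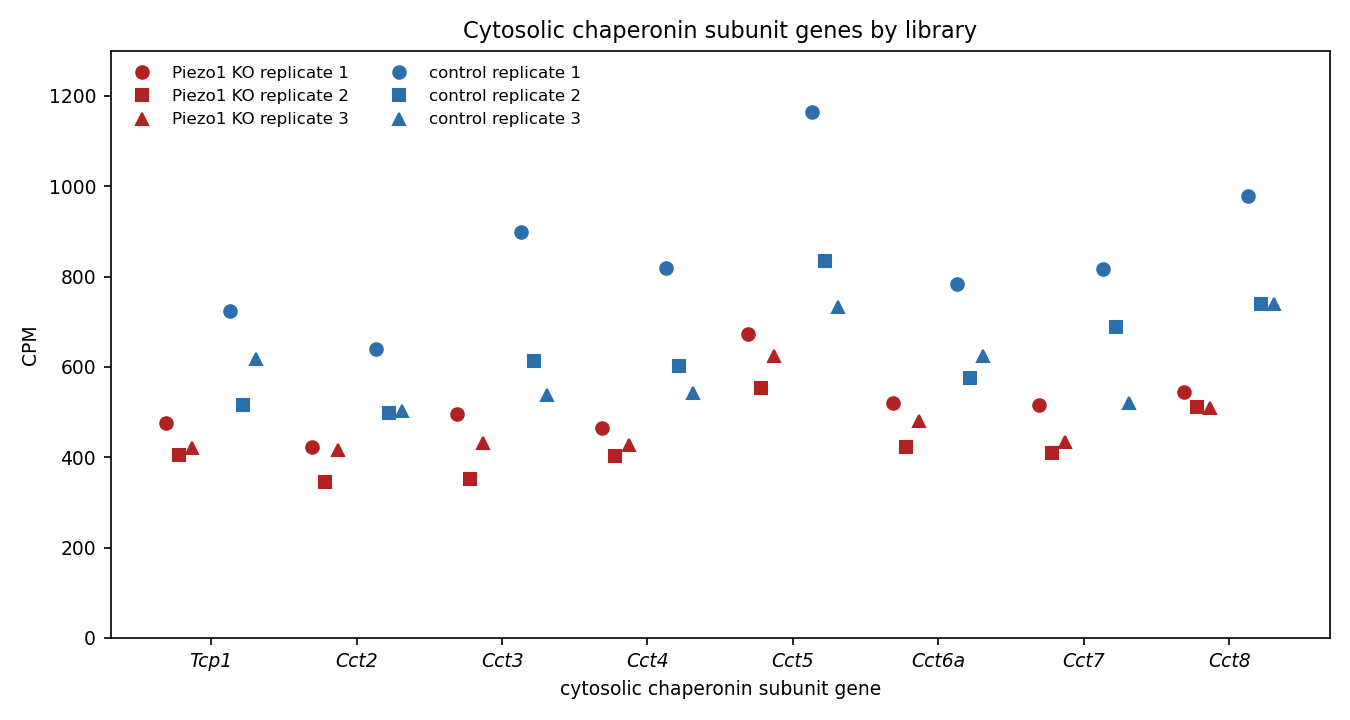
Levels in CPM of the 7 cytosolic chaperonin subunit genes and of Cct6a in each library, with replicates 1 to 3 as different symbols. In each subunit the 3 Piezo1 KO libraries lie below the 3 control libraries, and control replicate 1 is the highest of the 6.

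The mitochondrial chaperonin genes sit side by side and share the promoter region shown above, and the difference between their fold changes was not tested. Hspd1, HSP60, held 389, 298 and 274 CPM in Piezo1 KO against 409, 409 and 438 CPM in control libraries, without overlap (log2 fold change -0.39, SE 0.18, edgeR adjusted p = 0.484). Hspe1, its lid HSP10, held 603, 524 and 438 CPM in Piezo1 KO against 528, 369 and 694 CPM in control libraries, with full overlap (log2 fold change -0.02, SE 0.25). The ratio of Hspe1 to Hspd1 ranged between 1.55 and 1.76 in Piezo1 KO and was 1.29, 0.901 and 1.59 in control libraries, with Piezo1 KO replicate 1 just inside the control range. The tables hold 4 pseudogene rows named after Hspd1, and reads may be split between them.

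Both heat shock factors were low and similar in the groups. Hsf1, the main regulator of the heat shock response, held 24.0, 27.8 and 38.0 CPM in Piezo1 KO against 36.9, 23.3 and 24.8 CPM in control libraries. Hsf2, which can pair with Hsf1, held 10.03 CPM, 13.3 CPM and 10.7 CPM in Piezo1 KO against 13.4, 7.82 and 15.1 CPM in control libraries. The groups overlapped in both. The log2 fold change was 0.08 (SE 0.30) in Hsf1 and -0.09 (SE 0.40) in Hsf2, and both signs turned when some single libraries were left out. Hspb1, the small heat shock protein HSP27, had 105, 112 and 0 counts in Piezo1 KO and 0 counts in all 3 control libraries, so Piezo1 KO replicate 3 stood with control.

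The genes listed here as heat-inducible did not all differ in the same direction. This depends on the list, which leaves out Hspd1 (log2 fold change -0.39), Hspe1 (-0.02) and Dnaja1 (-0.91), genes with a motif in their windows. Of the 8 genes on the list (Hspa1a, Hspa1b, Hspb1, Hsph1, Hsp90aa1, Dnajb1, Dnajb4 and Bag3), 5 were tested. Of these, 3 had negative log2 fold changes, and the median of the 5 was -0.26. Dnajb1 was the 1 gene of the list with an unadjusted p under 0.05. Promoter motif and order of the groups were also set side by side. Of the 13 genes with a window whose Piezo1 KO libraries lay below control, 5 held an inverted pair (Hspd1, Dnaja1, Stub1, Cct2 and Cct5), against 11 of the other 22. Those 22 include Hspa1a, Hspa1b and Hspb1, which hold a pair but did not pass the filter on low counts. These genes could not be placed with the 13, so no contrast can be read from the counts. The 4 genes with a full element had log2 fold changes of -0.49 in Hsph1, -0.39 in Hspd1, -0.02 in Hspe1 and 0.20 in Dnajb6.

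Chaperone genes outside the 43 had a median nearer to 0, though they were not matched to the 43 for level, with which fold changes varied. Of 63 such genes, 57 were tested, 34 were negative, and their median stood at -0.16. Unadjusted p-values under 0.05 were reached by 8 lower and 2 higher genes, beside 5.59% and 5.44% of all tested genes. In Piezo1 KO 10 lay lower and 3 higher without overlap, beside 8.76% and 10.7% of all tested genes. Among the HSP70 partners, Bag2, which restrains CHIP, held 74.4, 51.3 and 39.2 CPM in Piezo1 KO against 103, 112 and 112 CPM in control libraries (log2 fold change -0.98, SE 0.25, edgeR adjusted p = 0.277, DESeq2 adjusted p = 0.00951). Bag5, another BAG domain protein, stood at -0.92 (SE 0.30), with no overlap in either gene.

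The J-protein Dnajc13, which acts on endosomes, lay higher in Piezo1 KO (38.4, 27.9 and 36.6 CPM, against 21.0, 24.1 and 23.6 CPM in control libraries), with a log2 fold change of 0.58 (SE 0.24) that was 0.17 with the length and GC trends removed, whereas the mitochondrial Dnajc30 lay lower, with a log2 fold change of -0.90 (SE 0.33). Of the HSP90 co-chaperones, Pih1d1 of the R2TP complex stood at -0.56 (SE 0.20) and Fkbp8, an immunophilin of mitochondrial membranes, at 0.65 (SE 0.24). Prefoldin hands actin and tubulin to CCT. Among the 8 genes of chaperonin and prefoldin, 4 were negative, the median was 0.01, and Pdcl3, a CCT cofactor, stood at -0.16 (SE 0.21).

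All 6 other mitochondrial chaperones and proteases had negative log2 fold changes, with a median of -0.43. Clpp, the proteolytic subunit of the matrix protease, held 147, 127 and 154 CPM in Piezo1 KO against 212, 200 and 203 CPM in control libraries, without overlap (log2 fold change -0.52, SE 0.15, edgeR adjusted p = 0.310, DESeq2 adjusted p = 0.0135). Grpel1, the exchange factor of mortalin, stood at -0.39 (SE 0.24) with overlap. Of the 10 other genes named after or linked to small heat shock proteins and heat shock factors, 5 were tested. Hspb11 stood at 0.56 (SE 0.32) without overlap, and Hsbp1, which binds heat shock factor 1, at -0.31 (SE 0.21) with overlap.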

How the data were processed

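Each library has 1 deposited table of raw counts per gene, whole numbers that the authors did not normalize. The submitters' processing notes list HISAT2 2.1 and the build mm10, then featureCounts 1.6.4 and cutadapt 1.16.5, without roles or settings. The treatment of strand and of reads with several matches is not stated in the sources used here. Libraries were made with a TruSeq RNA kit, per the labels' protocols.

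Genes were kept by filterByExpr, scaled by TMM, and compared by edgeR 4.0.16 (R 4.3.3) with its quasi-likelihood F test over all 6 libraries and 16022 genes, with Benjamini-Hochberg adjusted p under 0.05 as the threshold. SEs of log2 fold changes were derived from that test's F statistic. CPM are counts scaled to the TMM total, and values per kb used the principal transcript of GENCODE. The fitted biological coefficient of variation came to 0.755. The steps were checked on simulated counts. Every pair of libraries differed by more than sampling noise, with a chi-square per gene of at least 128. The floor for 0 counts was 3 counts and covers counting error only.

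The members and lists were chosen with earlier results of these data known. Named genes were up to 3 per class and up to 2 per related list with the smallest unadjusted p, plus Piezo1, Hspa1a, Hspa1b, Hspa8, Hsp90aa1, Hsp90ab1, Hsf1 and Hspd1. Other members were described after their values were seen. Alternatives were other size factors (RLE), no filter, at least 5 CPM in 3 libraries, DESeq2 1.42.0, limma-voom (limma 3.58.1), a replicate block, each library left out and, added after seeing the data, offsets for transcript length and GC content (mgcv 1.9.3). Promoter windows came from RefSeq and may differ from the gene models counted.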

Additional observations from a re-analysis of the deposited data

How the results depend on the processing

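At the adjusted threshold, 0 of the chaperone genes passed in either direction in the main test and in every alternative run except DESeq2, and the number of libraries, 3 a group, limits the precision of each value. DESeq2 called 379 genes higher and 396 lower over all genes (1401 and 1427 at an unadjusted p under 0.05), with 7 of the chaperone genes lower, and 2 higher at an unadjusted p. The filter at 5 CPM gave 1 gene lower over all genes and a median of -0.18 for the exchange factors. The HSP70 median was -1.14 in DESeq2 and -1.04 without a filter, where Hspa1a and Hspa1b enter it, and -0.32 with length and GC trends removed. That removal also put the HSP90 class at 0.01, the mitochondrial chaperonin at 0.00, Hspd1 at -0.21, Stip1 at -0.01, Cct8 at -0.43 and Cct6a at -0.31. Other genes moved the other way, to -1.20 for Dnaja1, -0.94 for Hspa4, -0.59 for Hsph1 and -0.67 for Stub1. In the main test these were -0.91, -0.70, -0.49 and -0.60. Hspa8 was at -0.95 against -1.12 in the main test, and Dnajb1 stayed at -0.65. The number of chaperone genes higher at an unadjusted p was 1 without a filter, in limma-voom and with those trends removed. Over all tested genes, those fits in the same order had 1054 of 23084, 1209 of 16022 and 751 of 14339 higher.

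With each library left out in turn, the chaperone genes lower at an unadjusted p numbered 7 to 19 (8 without control replicate 1, and 7 without Piezo1 KO replicate 2 or 3) and those higher 0 to 2. Without overlap, 16 to 20 lay lower and 1 to 4 higher in Piezo1 KO. The median of the tested chaperone genes stayed between -0.44 and -0.23. Class medians ranged between -0.68 and -0.36 for HSP70, -0.37 and -0.06 for HSP90, -0.50 and 0.08 for exchange factors, -0.36 and -0.13 for J-proteins, -0.36 and -0.07 for the mitochondrial chaperonin, -0.72 and -0.41 for the cytosolic chaperonin, and -0.07 and 0.31 for heat shock factors. Over all genes, 0 to 1 were higher at the adjusted threshold, 562 to 1339 higher and 573 to 1299 lower at an unadjusted p, and 2266 to 3219 higher and 1881 to 2877 lower without overlap.

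Some signs turned. Without length and GC trends, Hsbp1 was 0.02 against -0.31 in the main test, and, of genes near 0, Hsf2 was 0.09, Hsp90ab1 0.13 and Hspe1 0.21, and in limma-voom Hspe1 was 0.02. With libraries left out, Hsf1 ranged between -0.15 and 0.31, Hsf2 between -0.35 and 0.10, Hsp90aa1 between -0.10 and 0.16, Hsp90ab1 between -0.10 and 0.11 and Hspe1 between -0.25 and 0.22. The adjusted p of Hspa8 over the alternatives lay between 6.45e-05 and 0.618, that of Dnaja1 between 1.16e-07 and 0.618, Dnaja2 between 3.22e-05 and 0.618, Dnajb1 between 0.00736 and 0.666, Cct8 between 0.00412 and 0.664, Cct4 between 0.0458 and 0.725, and Stub1 between 0.0305 and 0.711. The cause of these shifts was not tested.

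Replicate numbers are shared by the groups. The deviations of libraries of the same number had correlations of 0.0380, 0.0160 and 0.0333, and those of different numbers lay between -0.0389 and 0.0079. All were small. With a replicate block, 14 chaperone genes were lower at an unadjusted p, beside 762 of all 16022 tested genes. The median of the chaperone genes was -0.31, beside 0.09 over all tested genes, and Hsp90ab1 and Hspe1 moved to 0.00 and 0.01.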
